A study of Saccharomyces cerevisiae with 30 samples.

Results

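The response of yeast to E9591, which the design text calls eupolauridine-9591, was set against the response to iron chelators, gene by gene, at 4 h. The quantity measured was the difference of effects, that is, the effect of E9591 over its own DMSO cultures minus the mean effect of the chelators 2,2'-bipyridyl (BIPR) and 1,10-phenanthroline (PHEN) over theirs. It uses 15 of the study's 30 arrays, in 5 groups of 3 biological replicate cultures with 1 array each. The groups were E9591 at 0.053 µM, DMSO at 0.25% beside it, BIPR at 65.9 µM, PHEN at 6.2 µM, and DMSO at 0.25% beside these. Every culture was strain S288C, a haploid strain whose cells are of the alpha mating type, grown at 30 °C in synthetic dextrose medium without amino acids, buffered to pH 7.0. Cultures were treated at an optical density (OD600) of 0.2 and harvested at 0.5, after about 4 h. The doses were set compound by compound at the IC50 and therefore differ. In the study's design BIPR and PHEN served as references for iron deficiency, and the comparison asks where E9591 acts like them and where it does not. E9591 and the chelators were run in separate experiments, so compound and experiment cannot be told apart beyond what the subtraction of each experiment's own DMSO removes.

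In yeast the transcription factors Aft1 and Aft2 sense iron through iron-sulfur clusters made in mitochondria, and when that signal is low they turn on genes that capture and import iron. One of their targets, TIS11, encodes Cth2, which binds messages of iron-using proteins and leads to their decay, so that iron is spared. Iron is also a cofactor of heme, sterol and fatty acid enzymes, and the cell's hypoxic program responds to heme and sterols.

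Levels are given as log2(intensity + 1), and effects and differences of effects on the same log2 scale, ± standard error of the fit, with n = 3 arrays per group. A difference of effects above 0 means that the effect of E9591 was the higher one, and rose, fell and differed are used of an adjusted p under 0.05. Arrays measure a message's share of the labelled RNA, so less RNA per cell and fewer cells that express a gene cannot be told apart. The floor, the 95th percentile of the probe sets for another yeast species, lay at an intensity of 14.9 to 34.5, and 97.3% to 98.8% of the 5429 tested genes lay above it on any 1 array. The number of arrays limits the precision. The SD of the difference between arrays of a group was 0.198 to 0.386, and the widest pairs both held replicate C of the chelators' DMSO group, which also had the lowest median level (9.83, against 10.14 at the other end). The totals over all genes and the results of some lists are given with and without that array. The DMSO groups of the 2 experiments differed in 1263 genes (23.3%), of which 32 differed at least 2-fold. All 4 alpha-cell genes lay above the floor on all 15 arrays. Nearly all tested genes lay above it on any 1 array, so this does not check the mating type. STE3, the receptor of alpha cells for a-factor, had 12.73, 12.82 and 12.72 in E9591 cultures, and its level was between 12.59 and 12.88 on the 15 arrays.

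The effects of E9591 and of the chelators differed in 1567 of 5429 genes, by limma with Benjamini-Hochberg adjustment at 0.05. The effect of E9591 was the higher one in 1024 genes (18.9%) and the lower one in 543 (10.0%), and it was so at least 2-fold in 190 (3.50%) and 59 genes (1.09%). Of the 190 genes, 64 had risen with E9591 only, 52 had fallen with the chelators only, 41 had moved the same way with both, 32 had moved in opposite directions and 1 had moved with neither. Of the 59 genes, 31 had moved with the chelators only, 22 the same way with both, 5 in opposite directions and 1 with neither. In all 249 of these genes the 3 E9591 arrays lay outside the range of the 6 chelator arrays, each array taken minus the mean of its own DMSO arrays. The genes were selected by call and size on these same arrays, so the lack of overlap is no separate support. When treated arrays were set directly against treated arrays, 185 of the 190 and 53 of the 59 genes were called in the same direction. The split between higher and lower depends on the scaling of the arrays. It was 851 higher and 850 lower after quantile normalization and 837 and 895 with arrays centred on the median, and at least 2-fold it was 128 and 85, and 169 and 73. Without replicate C of the chelators' DMSO group it was 1375 and 469, and 221 and 49 at least 2-fold. The median difference over all tested genes was 0.06 as deposited, -0.01 under both other scalings and 0.10 without that array. The median effect of E9591 was 0.09 as deposited, -0.05 after quantile normalization and -0.07 with arrays centred, and under these scalings E9591 lowered 1268 and 1630 genes.

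E9591 raised 1736 genes over its own DMSO cultures (32.0%), of which 233 rose at least 2-fold, and lowered 614 (11.3%), none of them as much as 2-fold (25 did after quantile normalization and 1 with arrays centred on the median). The chelators raised 1715 genes (31.6%), 175 of them at least 2-fold, and lowered 1201 (22.1%), 79 of them at least 2-fold. Of the 79 genes that the chelators lowered at least 2-fold, E9591 lowered 24 and raised 5, the median effect was -0.16 with E9591 and -1.33 with the chelators, and 76 differed between the treatments. After quantile normalization the chelators lowered 91 genes at least 2-fold, and E9591 lowered 53 of them, 2 at least 2-fold. Without replicate C of the chelators' DMSO group there were 94 such genes, and E9591 lowered 31 of them. The rises of 2-fold and more were partly shared. Of the 175 genes that the chelators raised at least 2-fold, E9591 raised 132, 67 of them at least 2-fold, and lowered 2, with median effects of 0.76 with E9591 and 1.42 with the chelators. Across the 5429 genes the 2 effects had a correlation of 0.501, as a description of genes that share these arrays.

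**Figure D1:**
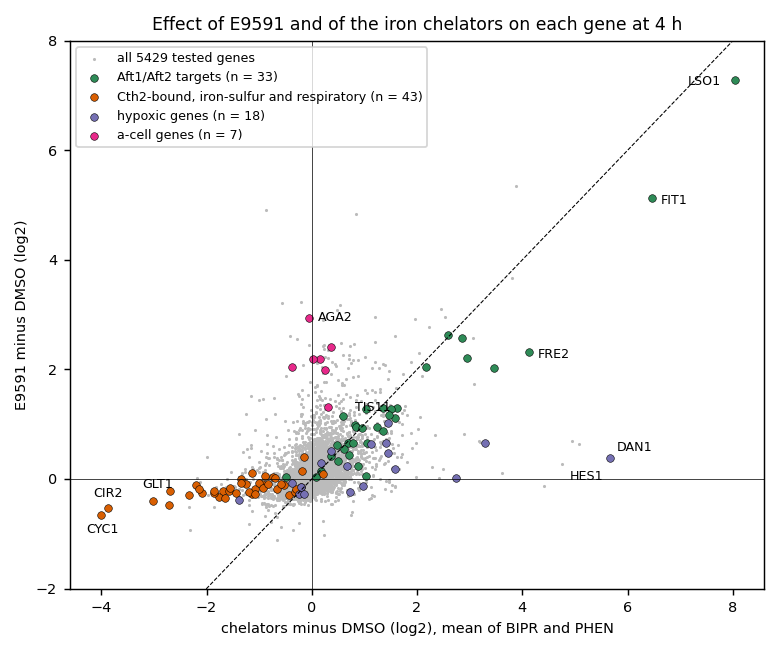
Effect of E9591 over DMSO (vertical, log2) against the mean effect of BIPR and PHEN over DMSO (horizontal, log2) for 5429 genes, with 4 groups of genes coloured and the line of equal effect dashed. Most Aft1 and Aft2 targets lie above 0 on both axes, many of them near the line, while some, such as FRE2 and FIT1, lie below it. Most genes of iron-using proteins lie far to the left and close to 0 on the vertical axis. Hypoxic genes such as DAN1 lie far to the right and low, and a-cell genes such as AGA2 lie high and near 0 on the horizontal axis. LSO1 was below the floor in both DMSO groups, so its position depends on the added 1.

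Genes that bring iron into the cell rose under both treatments. Of 33 tested targets of Aft1 and Aft2, E9591 raised 29 and lowered none, beside the 32.0% of all tested genes that it raised. The chelators raised 30, beside 31.6% of all genes, and lowered 1. The median effect was 0.96 with E9591 and 1.03 with the chelators. The difference of effects was called in 13 of the 33, higher in 2 (beside 18.9% of all genes) and lower in 11 (beside 10.0%), and the median difference was -0.17, against 0.06 over all tested genes. The baselines were unlike. In the DMSO group beside E9591, 20 of the 33 were lower than in the one beside the chelators (14.8% of all tested genes were), and 1 was higher. A lower DMSO level beside E9591 moves the difference of effects up, not down. Treated arrays set directly against treated arrays were lower with E9591 in 24 of the 33 (beside 22.7% of all genes) and higher in 3. TIS11, the gene of Cth2, rose under all 3 compounds. On the 3 arrays of each group, TIS11 had 12.55, 12.35 and 12.41 in E9591 cultures against 11.53, 11.52 and 11.45 in their DMSO cultures, and 13.000, 12.98 and 12.99 with BIPR and 12.93, 12.93 and 12.95 with PHEN against 12.01, 12.06 and 11.96 in the chelators' DMSO cultures. All treated arrays lay above all arrays of their controls. The effect on TIS11 was 0.94 ± 0.07 with E9591 and 0.95 ± 0.06 with the chelators, with a difference of -0.02 ± 0.09 (adjusted p = 0.908). The 95% interval of that difference ran from -0.21 to 0.17.

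Siderophore genes rose under both treatments. FIT1, FIT2 and FIT3 encode cell wall mannoproteins that retain siderophore iron, and ARN1, ARN2, SIT1 and ENB1 encode siderophore transporters. All 7 rose with E9591 and all 7 with the chelators, and the difference was called for FIT1 alone. After quantile normalization 3 of the 7 had a called lower value for E9591, and 2 had it without replicate C of the chelators' DMSO group. The DMSO group beside E9591 was the lower one in 6 of the 7, and treated arrays were lower with E9591 than with the chelators in 6. FIT1 had levels of 12.08, 12.09 and 12.05 with E9591 against 7.12, 6.89 and 6.86 with DMSO beside it, and of 13.99, 13.94 and 13.85 with BIPR and 13.80, 13.87 and 13.93 with PHEN against 7.51, 7.40 and 7.38 with DMSO beside them. FIT1 thus rose under all 3 compounds, further with the chelators, and the difference was -1.34 ± 0.10 (adjusted p = 2.11e-10). Among the other 6 genes the difference lay between -0.28 for ENB1 and 0.17 for FIT2.

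The reductive uptake system showed a smaller response to E9591 in 5 of its 12 genes (beside 10.0% of all tested genes with the lower value). The count was 7 after quantile normalization and 6 with arrays centred on the median. FRE2, a plasma membrane ferric reductase, gave the largest of these differences. FRE2 had levels of 10.93, 10.75 and 10.77 with E9591 against 8.45, 8.62 and 8.45 with DMSO beside it, and of 13.14, 13.14 and 13.04 with BIPR and 12.98, 13.06 and 13.14 with PHEN against 8.97, 8.97 and 8.94 with DMSO beside them. The E9591 arrays lay between the DMSO arrays and the chelator arrays without overlap. The effect was 2.31 ± 0.07 with E9591 and 4.12 ± 0.06 with the chelators, and the difference was -1.81 ± 0.09 (adjusted p = 2.98e-13). FRE5, a putative reductase gene of the same family, differed by -0.74 ± 0.16 (adjusted p = 0.000903), FRE1, which encodes a copper and iron reductase, by -0.48 ± 0.12 (adjusted p = 0.0052), and FTH1 and FET5, which encode the permease and oxidase of the vacuole membrane, by -0.47 ± 0.10 and -0.33 ± 0.07. FRE3, FRE4, FRE6, FTR1, SMF3 and FET4 rose with both and did not pass the test of the difference. FET3, the multicopper oxidase of high-affinity uptake, did not pass the test under either treatment (0.14 with E9591 and 0.17 with the chelators).

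Other Aft targets differed in both directions. HMX1, the heme oxygenase that releases iron from heme, had effects of 2.03 with E9591 and 3.45 with the chelators and a difference of -1.42 ± 0.14 (adjusted p = 3.23e-08). BNA2, a tryptophan dioxygenase that carries heme, had 0.05 with E9591 and 1.02 with the chelators, and its difference was -0.98 ± 0.14 (adjusted p = 9.71e-06). The cluster scaffold genes parted: ISU1 had effects of 1.15 with E9591 and 0.59 with the chelators and ISU2 of 0.23 with E9591 and 0.88 with the chelators, with differences of 0.56 ± 0.11 (adjusted p = 0.000314) and -0.65 ± 0.09 (adjusted p = 3.79e-06). CTH1, a homologue of Cth2 that also acts on messages, fell with the chelators (-0.49) and had an effect of 0.04 with E9591. LSO1, a small protein gene of the Aft regulon, was below the floor on all arrays of both DMSO groups, and it was at least 41.5-fold higher with E9591, at least 52.4-fold with BIPR and at least 61.2-fold higher with PHEN (the bright group's mean over the floor). Its difference of effects did not pass the test (adjusted p = 0.344), except without replicate B of the chelators' DMSO group. FMP23, a mitochondrial protein gene, rose under both (2.63 with E9591 and 2.58 with the chelators) with a difference of 0.05 ± 0.16.

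**Figure D2:**
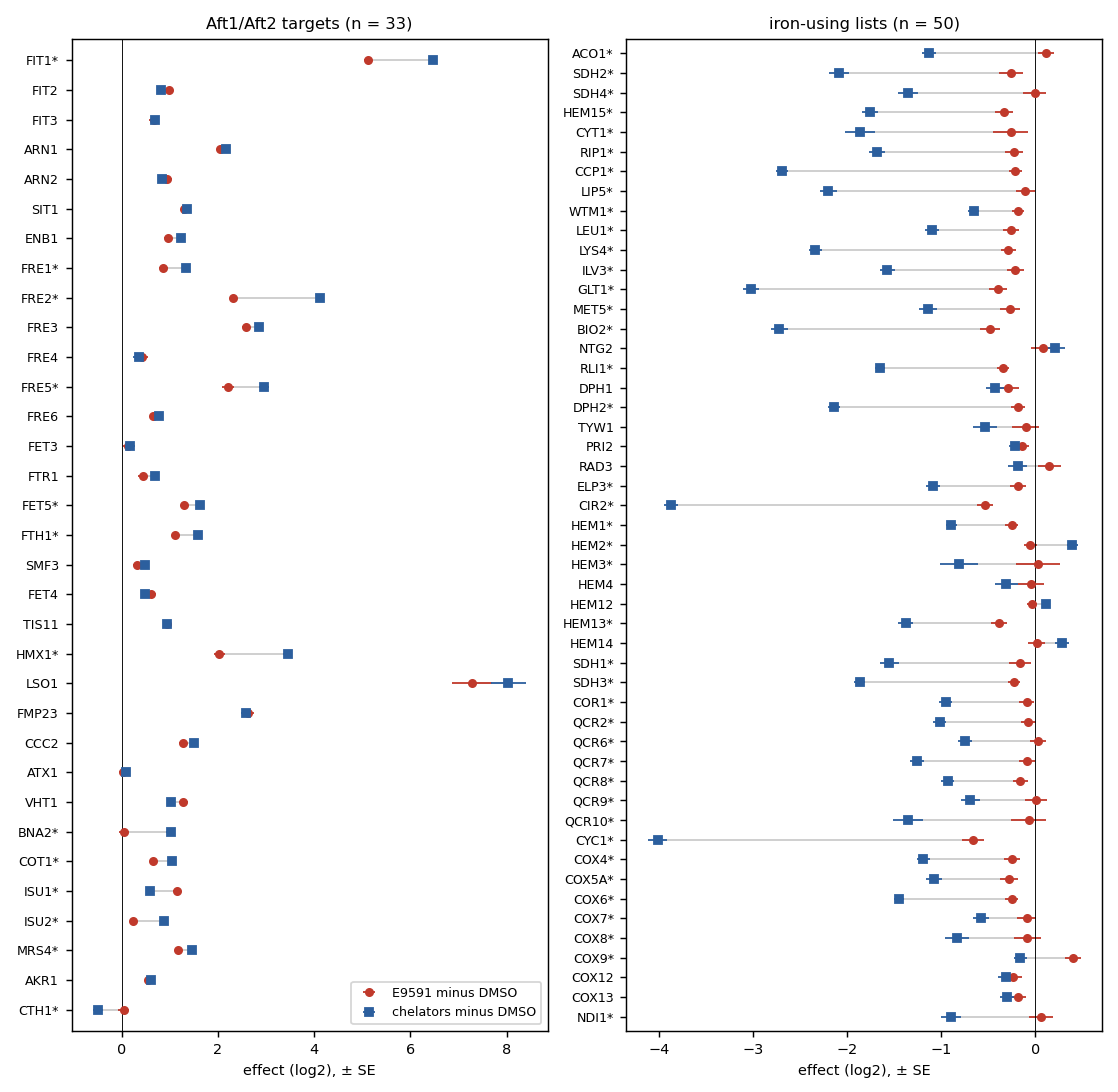
Effect over DMSO (horizontal, log2, ± standard error of the fit) with E9591 (red circles) and with the chelators (blue squares) for 33 Aft1 and Aft2 targets (left) and 50 genes of the iron-using lists (right). A star marks a difference of effects with an adjusted p under 0.05. On the left both symbols lie right of 0 for most genes, and on the right the squares lie far left of 0 for most genes while the circles stay between -0.66 and 0.40.

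The messages of iron-using proteins fell with the chelators, and the effect of E9591 on most of them was the higher one by a called difference. Taken as 1 set, the lists of Cth2-bound messages, iron-sulfur proteins, heme synthesis and the respiratory chain held 50 tested genes. E9591 lowered 19 of them (beside 11.3% of all tested genes) and raised 1, while the chelators lowered 44 (beside 22.1%) and raised 3. The median effect was -0.18 with E9591 and -1.09 with the chelators, and the extremes were -0.66 with E9591 and -4.01 with the chelators. The difference of effects was higher in 39 (beside 18.9%), lower in 1 (beside 10.0%) and not called in 10, with a median of 0.92. The gene with the lower value was HEM2, and COX9 was the gene that rose with E9591.

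CYC1, the main cytochrome c of the respiratory chain, carried the widest of these differences. On the 3 arrays of each group, CYC1 had 10.42, 10.38 and 10.46 in E9591 cultures against 11.06, 11.11 and 11.07 in their DMSO cultures, and 6.39, 6.39 and 6.52 with BIPR and 6.41, 6.75 and 6.60 with PHEN against 10.61, 10.53 and 10.42 in the chelators' DMSO cultures. All 6 chelator arrays lay below the 3 E9591 arrays by more than 3 on the log2 scale, and the E9591 arrays lay below their own controls. The effect was -0.66 ± 0.12 with E9591 and -4.01 ± 0.10 with the chelators, and the difference was 3.35 ± 0.16 (adjusted p = 8.18e-14). CIR2, a putative flavoprotein oxidoreductase of mitochondria with an iron-sulfur cluster, followed the same course. CIR2 had levels of 10.70, 10.62 and 10.64 with E9591 against 11.21, 11.12 and 11.23 with DMSO beside it, and of 7.30, 7.10 and 7.39 with BIPR and 7.13, 7.35 and 7.55 with PHEN against 11.27, 11.21 and 11.04 with DMSO beside them. Its difference was 3.34 ± 0.12 (adjusted p = 2.88e-16). GLT1, the iron-sulfur glutamate synthase, was the third in size. GLT1 had levels of 11.49, 11.65 and 11.58 with E9591 against 11.99, 11.95 and 11.96 with DMSO beside it, and of 8.67, 8.96 and 9.17 with BIPR and 8.86, 9.03 and 9.16 with PHEN against 11.91, 12.005 and 12.07 with DMSO beside them. The fall with E9591 was small and that with the chelators large, and the difference was 2.62 ± 0.13 (adjusted p = 3.36e-13). CCP1, the mitochondrial cytochrome c peroxidase, had effects of -0.21 with E9591 and -2.69 with the chelators and a difference of 2.48 ± 0.10 (adjusted p = 2.95e-15).

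The difference was called, and higher, in all 9 Cth2-bound messages tested, in 8 of them at least 2-fold (beside 3.50% of all tested genes). E9591 lowered 3 of the 9, HEM15, CCP1 and WTM1 (beside 11.3% of all genes), whereas the chelators lowered all 9 (beside 22.1%). The list median was -0.21 with E9591 and -1.75 with the chelators. TIS11 itself had nearly equal effects under both treatments, as given above, and Cth2 protein was not measured. With arrays centred on the median E9591 lowered 7 of the 9, and after quantile normalization it lowered 6 and raised 1, while the 9 calls of the difference held under both. LIP5, the lipoic acid synthase, had effects of -0.10 with E9591 and -2.20 with the chelators, SDH2, the iron-sulfur subunit of succinate dehydrogenase, -0.26 with E9591 and -2.09 with the chelators, and ACO1, the mitochondrial aconitase, 0.11 with E9591 and -1.13 with the chelators. WTM1, a nuclear transcriptional modulator, showed the smallest difference, 0.47 ± 0.09 (adjusted p = 0.000336).

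Of 19 iron-sulfur protein genes tested, 14 differed, all with the higher value for E9591 (beside 18.9% of all tested genes). The difference was at least 2-fold in 11 of the 14 (beside 3.50%). E9591 lowered 8 of the 19 (beside 11.3%) and the chelators 17 (beside 22.1%). Under centring and quantile normalization E9591 lowered 15 and 12. Besides those named above, BIO2, the biotin synthase, had effects of -0.48 with E9591 and -2.72 with the chelators and LYS4, the homoaconitase of lysine synthesis, -0.29 with E9591 and -2.34 with the chelators. DPH2, of diphthamide synthesis, had -0.18 with E9591 and -2.14 with the chelators, ILV3, the dihydroxyacid dehydratase, -0.21 with E9591 and -1.57 with the chelators, and RLI1, the iron-sulfur ATPase of ribosome recycling, -0.34 with E9591 and -1.65 with the chelators. The 5 genes without a called difference were NTG2, DPH1, TYW1, PRI2 and RAD3, which act in DNA repair, diphthamide synthesis, transfer RNA modification, DNA priming and DNA repair with transcription, and their differences lay between -0.12 for NTG2 and 0.43 for TYW1.

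In the respiratory chain 21 of 23 genes differed, all with the higher value for E9591 (beside 18.9% of all tested genes). E9591 lowered 6 (beside 11.3%) and raised COX9, and the chelators lowered 22 (beside 22.1%), with list medians of -0.16 with E9591 and -1.07 with the chelators. With arrays centred on the median E9591 lowered 16, and after quantile normalization 10. The differences included subunits that hold no iron. COR1 and QCR2, core subunits of the cytochrome bc1 complex, had effects of -0.09 with E9591 and -0.95 with the chelators and of -0.08 with E9591 and -1.01 with the chelators, and COX6, a cytochrome oxidase subunit, of -0.25 with E9591 and -1.45 with the chelators. COX12 and COX13, other oxidase subunits, differed by 0.08 ± 0.12 and 0.12 ± 0.12 and did not pass the test. In heme synthesis 4 of 8 genes had the higher value for E9591 (beside 18.9%) and 1 the lower (near the 10.0% of all genes). With arrays centred on the median 3 had the higher and 3 the lower. HEM15, the ferrochelatase, had effects of -0.33 with E9591 and -1.75 with the chelators and HEM13, the coproporphyrinogen oxidase, -0.38 with E9591 and -1.38 with the chelators. HEM2, the porphobilinogen synthase, differed by -0.45 ± 0.09 (adjusted p = 0.000668), and the call of HEM3, the next enzyme (adjusted p = 0.0446), was lost under 14 of the alternative settings.

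**Figure D3:**
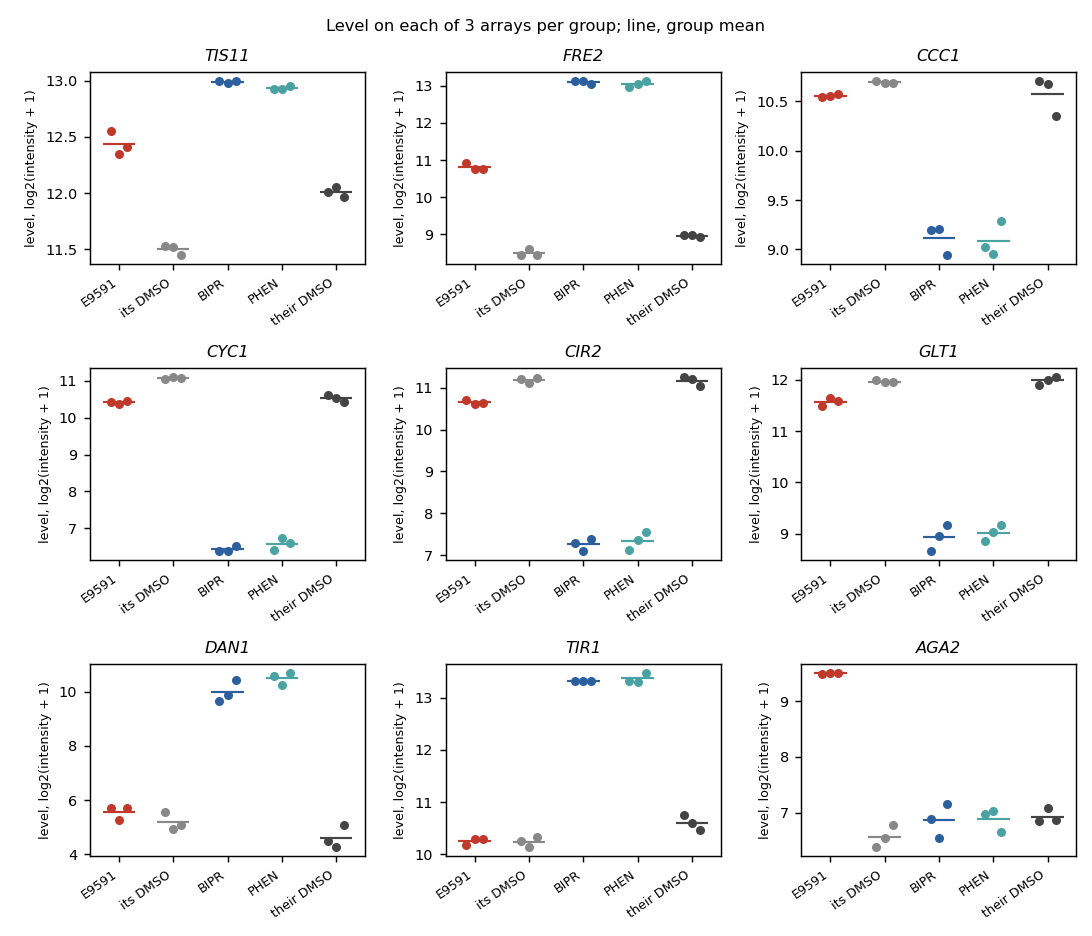
Level (vertical, log2(intensity + 1)) of 9 genes on each of the 3 arrays (points) of the 5 groups, with the group mean as a line and a separate vertical axis for each gene. The E9591 points of CYC1, CIR2, GLT1 and CCC1 lie below their DMSO points, and the BIPR and PHEN points lie much further below theirs. DAN1 and TIR1 stand high with BIPR and PHEN, and AGA2 stands high with E9591.

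CCC1 and GRX4 differed among the genes that store or sense iron. CCC1, the vacuolar iron importer, is turned on by the factor Yap5 when iron is plentiful. CCC1 had levels of 10.54, 10.55 and 10.57 with E9591 against 10.71, 10.68 and 10.68 with DMSO beside it, and of 9.19, 9.21 and 8.95 with BIPR and 9.03, 8.96 and 9.28 with PHEN against 10.70, 10.68 and 10.34 with DMSO beside them. The chelator arrays lay below all others. The effect was -0.14 ± 0.09 with E9591 and -1.47 ± 0.08 with the chelators, of which only the chelators' passed the test, and the difference was 1.34 ± 0.12 (adjusted p = 6.67e-09). GRX4, a glutaredoxin that relays the iron signal to Aft1 and is also a Yap5 target, rose with E9591. GRX4 had levels of 11.20, 11.12 and 11.16 with E9591 against 9.81, 9.82 and 9.84 with DMSO beside it, and of 10.16, 10.12 and 9.97 with BIPR and 10.04, 10.11 and 9.97 with PHEN against 10.11, 10.01 and 9.84 with DMSO beside them. Only the E9591 arrays were raised, and the difference was 1.26 ± 0.11 (adjusted p = 1.98e-09). GRX3, its paralogue, had effects of -0.10 with E9591 and -0.08 with the chelators, and neither passed the test. Of 7 regulators of iron sensing 3 had the higher value for E9591 (beside 18.9% of all tested genes) and 1 the lower (beside 10.0%). With arrays centred on the median 1 had the higher and 1 the lower, near the shares of all genes (837 and 895 of 5429). FRA1, which acts with Grx4, lost its call under 6 of the alternative settings. Of 4 Yap5 targets 2 had the higher value (beside 18.9% of all genes). AFT1 rose with both (0.44 with E9591 and 0.74 with the chelators) and differed by -0.30 ± 0.09 (adjusted p = 0.0133). AFT2 also rose with both, and its call (adjusted p = 0.0385) was lost under 12 of the alternative settings.

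The genes that build iron-sulfur clusters also differed. Of 17 genes of the mitochondrial machinery, 8 differed with the higher value for E9591 (beside 18.9% of all tested genes). The value was lower in 2, NFS1 and ISU2, near the 10.0% of all genes. With arrays centred on the median 8 were higher and 4 lower. ISA1, which acts late in making larger clusters, showed the widest difference. ISA1 had levels of 11.24, 11.21 and 11.30 with E9591 against 10.94, 10.85 and 10.79 with DMSO beside it, and of 8.43, 8.73 and 9.10 with BIPR and 8.55, 8.73 and 8.96 with PHEN against 10.77, 10.86 and 10.61 with DMSO beside them. ISA1 rose with E9591 and fell with both chelators, and the difference was 2.39 ± 0.16 (adjusted p = 2.05e-11). YAH1, the mitochondrial ferredoxin, moved in opposite directions as well (0.48 with E9591 and -0.86 with the chelators), with a difference of 1.34 ± 0.10 (adjusted p = 2.89e-10). YFH1, the yeast frataxin, NFU1, a late cluster carrier, BOL3, which acts with it, and GRX5, the mitochondrial glutaredoxin, fell with the chelators and did not pass the test with E9591. NFS1, the cysteine desulfurase that supplies sulfur, had effects of 0.12 with E9591 and 0.48 with the chelators. In the cytosolic machinery E9591 raised 6 of 8 genes (beside 32.0% of all genes) and the chelators 3 (beside 31.6%). The difference was called in 4, all higher (beside 18.9%), and with arrays centred on the median 4 were higher and 1 lower. CIA2, a component of the targeting complex, had 11.17, 11.34 and 11.40 with E9591 against 9.86, 9.90 and 9.82 with DMSO, and its difference was 1.24 ± 0.09 (adjusted p = 2e-10). NAR1, an iron-sulfur protein of the same pathway, had effects of 0.92 with E9591 and 0.24 with the chelators and CFD1, a scaffold, 0.52 with E9591 and 0.05 with the chelators.

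Hypoxic genes differed in the other direction. Many genes of this kind are low in air and come on when heme or sterols run low. Not all members of the list are off in air, and the DMSO levels of TIR1 below are an example. Of 18 tested, 10 had the lower value for E9591 (beside 10.0% of all tested genes), 5 of them at least 2-fold (beside 1.09%). The value was the higher one in 1, HEM13 (beside 18.9%). The median effect was 0.21 with E9591 and 0.85 with the chelators. E9591 raised 8 of them (beside 32.0% of all tested genes) and the chelators 12 (beside 31.6%). DAN1, a cell wall mannoprotein made in anaerobic cells, had the largest negative difference among the called genes. DAN1 had levels of 5.71, 5.27 and 5.70 with E9591 against 5.54, 4.92 and 5.06 with DMSO beside it, and of 9.67, 9.90 and 10.43 with BIPR and 10.59, 10.24 and 10.72 with PHEN against 4.47, 4.27 and 5.07 with DMSO beside them. The 6 chelator arrays lay far above the other 9, among which the E9591 arrays overlapped their controls. The difference was -5.27 ± 0.35 (adjusted p = 2.71e-11), and -5.30 ± 0.28 with levels raised to the floor, since 2 of its DMSO arrays beside E9591 and 1 beside the chelators lay below the floor. TIR1, a mannoprotein of the same kind, was well above the floor in all groups. TIR1 had levels of 10.17, 10.30 and 10.29 with E9591 against 10.25, 10.14 and 10.32 with DMSO beside it, and of 13.33, 13.33 and 13.32 with BIPR and 13.33, 13.30 and 13.49 with PHEN against 10.75, 10.60 and 10.47 with DMSO beside them. TIR1 differed by -2.73 ± 0.15 (adjusted p = 9.97e-13). TIR4 differed by -2.63 ± 0.14 and TIR3 by -1.10 ± 0.13, both also mannoprotein genes.

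Regulators and uptake genes of the sterol branch followed. UPC2, the factor that turns on sterol synthesis and import, had effects of 0.18 with E9591 and 1.59 with the chelators and a difference of -1.41 ± 0.17 (adjusted p = 4.38e-07). OLE1, the iron-dependent fatty acid desaturase, fell with E9591 (-0.23), rose with the chelators (0.73) and differed by -0.97 ± 0.10 (adjusted p = 3.14e-08). AUS1, a sterol importer, rose with both (0.66 with E9591 and 1.42 with the chelators). The 7 hypoxic genes whose difference did not pass were TIR2, AAC3, ANB1, COX5B, CYC7, ROX1 and PAU23. Under quantile normalization the list median with E9591 was -0.12, on the other side of 0, while the difference was lower in 11 genes and higher in 1.

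**Figure D4:**
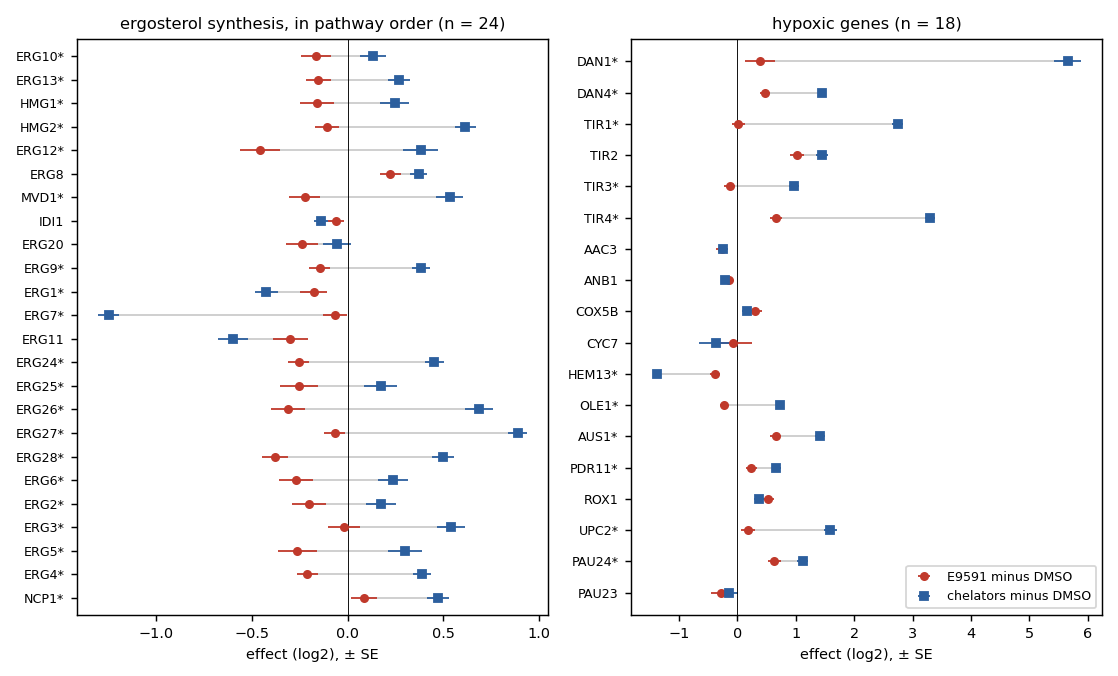
Effect over DMSO (horizontal, log2, ± standard error of the fit) with E9591 (red circles) and with the chelators (blue squares) for 24 genes of ergosterol synthesis in the order of the pathway (left) and 18 hypoxic genes (right). A star marks a difference of effects with an adjusted p under 0.05. For most genes of both panels the square lies right of the circle, and ERG7 and HEM13 are the plainest exceptions.

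Ergosterol synthesis, which needs heme, iron and oxygen at several steps, differed in the same direction. E9591 lowered 13 of 24 genes (beside 11.3% of all tested genes) and raised 1, ERG8 (beside 32.0%). The chelators raised 16 (beside 31.6%) and lowered 4 (beside 22.1%). The difference was lower for E9591 in 18 genes (beside 10.0%) and higher in 2 (beside 18.9%), with a median of -0.47. The list median was -0.19 with E9591 and 0.33 with the chelators. With arrays centred on the median E9591 lowered 21 and after quantile normalization 8, and the difference was lower in 18 and 19. ERG26 and ERG27, of the demethylation complex, had effects of -0.31 with E9591 and 0.69 with the chelators and of -0.07 with E9591 and 0.89 with the chelators, with differences of -0.999 ± 0.11 (adjusted p = 3.09e-07) and -0.95 ± 0.07 (adjusted p = 4.53e-10). ERG7, the lanosterol synthase, was the reverse. ERG7 had levels of 11.25, 11.23 and 11.17 with E9591 against 11.31, 11.30 and 11.24 with DMSO beside it, and of 10.12, 10.26 and 10.38 with BIPR and 10.32, 10.35 and 10.46 with PHEN against 11.63, 11.61 and 11.45 with DMSO beside them. ERG7 was lower on all 6 chelator arrays, and the difference was 1.18 ± 0.08 (adjusted p = 1.03e-10). ERG11, the heme-containing demethylase, fell with both (-0.30 with E9591 and -0.60 with the chelators) and did not pass the test of the difference, and ERG1, the squalene epoxidase, passed narrowly (adjusted p = 0.0471) and lost its call under 17 of the alternative settings.

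The other genes with the largest negative differences had in common that they rose with the chelators. HES1, an oxysterol-binding protein homologue, had 6.46, 6.51 and 6.50 with E9591 against 6.21, 6.40 and 6.02 with DMSO, and 11.13, 11.13 and 11.55 with BIPR and 11.50, 11.24 and 11.45 with PHEN against 6.80, 6.81 and 6.13 with DMSO. The difference of HES1 was -4.48 ± 0.20 (adjusted p = 4.94e-14). SET4, a SET-domain protein gene of hypoxic cells, was below the floor on all arrays of E9591 and of its DMSO group, so that its difference is a fitted value of -4.43 ± 0.63, or -4.95 ± 0.23 with levels raised to the floor. Between treated arrays SET4 was at least 17.1-fold higher with BIPR and at least 21.3-fold higher with PHEN than with E9591. IZH4, a membrane protein gene of a family tied to zinc and sterols, differed by -3.51 ± 0.17 (adjusted p = 2.98e-13), and TSA2, an inducible peroxiredoxin, by -2.47 ± 0.21 (adjusted p = 2.07e-09). PDC6, a minor pyruvate decarboxylase, rose with both (0.82 with E9591 and 2.90 with the chelators) and differed by -2.07 ± 0.21 (adjusted p = 4.84e-08). The rest of the 15 were YMR317W (-4.53 ± 0.28), PBI1 (-4.25 ± 0.14), YML083C (-2.52 ± 0.41, or -1.07 ± 0.27 with levels raised to the floor), the sphingolipid phosphatase YSR3 (-2.40 ± 0.25), the membrane protein FHN1 (-2.31 ± 0.16), HBN1 (-2.05 ± 0.11) and the cell wall mannoprotein HPF1 (-1.94 ± 0.11).

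Genes specific to a cells rose with E9591. All 7 tested had the higher value for E9591, each at least 2-fold (beside 3.50% of all tested genes). The list median was 2.19 with E9591 and 0.15 with the chelators. AGA2, the binding subunit of a-agglutinin, led the list. AGA2 had levels of 9.50, 9.51 and 9.52 with E9591 against 6.38, 6.54 and 6.78 with DMSO beside it, and of 6.89, 6.54 and 7.15 with BIPR and 6.97, 7.03 and 6.65 with PHEN against 6.84, 7.07 and 6.86 with DMSO beside them. Only the E9591 arrays stood high, about 3 on the log2 scale above their controls, and the difference was 2.998 ± 0.19 (adjusted p = 1.26e-11). STE2, the alpha-factor receptor of a cells, had 10.85, 10.76 and 10.79 with E9591 against 8.52, 8.69 and 8.62 with DMSO, and its difference was 2.04 ± 0.13 (adjusted p = 1.41e-11). The a-factor genes MFA1 and MFA2 differed by 1.73 ± 0.19 and 2.18 ± 0.20, the protease gene BAR1 by 2.06 ± 0.22, and STE6, the a-factor exporter, by 1.001 ± 0.17. ASG7 differed by 2.42 ± 0.52 (adjusted p = 0.000974) and had 2 DMSO arrays below the floor. The chelators raised BAR1 and STE6 as deposited, and neither with arrays centred, after quantile normalization or without replicate C of their DMSO group. Of 4 alpha-cell genes none passed the test of the difference, and none passed with E9591. The chelators lowered 3 of them, MF(ALPHA)1, MF(ALPHA)2 and SAG1, but 1 of the 4 without replicate C of their DMSO group and 1 after quantile normalization.

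Genes for growth on carbon sources other than glucose also differed. In the glucose medium used here these genes are normally repressed. E9591 raised 10 of 14 genes of gluconeogenesis and the glyoxylate cycle (beside 32.0% of all tested genes). The chelators raised 5, near the 31.6% of all genes. After quantile normalization E9591 raised 7 and the chelators 3. The difference was higher in 6 (beside 18.9%) and lower in 1, CAT8 (beside 10.0%). The list median of the difference was 0.85, against 0.29 after quantile normalization and 0.44 with levels raised to the floor. Without replicate C of the chelators' DMSO group 9 were higher and 1 lower. MLS1, the malate synthase of the glyoxylate cycle, was below the floor on all 3 DMSO arrays beside E9591 and was at least 4.11-fold higher with E9591. Its fitted difference of 4.003 ± 0.57 became 1.88 ± 0.25 with levels raised to the floor. ICL1, the isocitrate lyase of the same cycle, had effects of 1.30 with E9591 and 0.30 with the chelators and a difference of 1.01 ± 0.14 (adjusted p = 7.34e-06). ADH2, the alcohol dehydrogenase used on ethanol, had 2.22 with E9591 and 1.01 with the chelators, and JEN1, the lactate carrier, 1.46 with E9591 and -0.19 with the chelators. PCK1, the first step of gluconeogenesis, rose with both (1.24 with E9591 and 1.08 with the chelators) and did not pass the test of the difference.

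The carnitine shuttle carries acetyl groups into mitochondria, and 4 of its 5 genes had the higher value for E9591 (beside 18.9% of all tested genes). CRC1, the mitochondrial carnitine carrier, had 9.51, 9.36 and 9.49 with E9591 against 6.21, 6.26 and 6.25 with DMSO, and 5.08, 5.10 and 4.51 with BIPR and 4.82, 5.59 and 5.26 with PHEN against 5.40, 5.68 and 5.83 with DMSO. CRC1 rose with E9591 and fell with the chelators, and the difference was 3.79 ± 0.21 (adjusted p = 1.9e-12). The carnitine acetyltransferase genes YAT2, YAT1 and CAT2 differed by 1.82 ± 0.12, 0.94 ± 0.14 and 0.52 ± 0.14.

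The largest positive differences outside these groups belonged to genes that rose with E9591. SRL4, a gene named as a suppressor of the lethality of rad53 mutants, was below the floor on all arrays of its own DMSO group and of BIPR and PHEN, and it was at least 9.38-fold higher with E9591. Its fitted difference of 5.79 ± 0.51 became 3.52 ± 0.13 with levels raised to the floor. ECM13, a gene of unsettled function, was above the floor on all 15 arrays. It had 10.37, 10.15 and 10.24 with E9591 against 7.31, 6.63 and 7.15 with DMSO, and its difference was 3.43 ± 0.21 (adjusted p = 9.24e-12). NDE2, an external NADH dehydrogenase of mitochondria, had effects of 2.90 with E9591 and 0.22 with the chelators and a difference of 2.68 ± 0.27 (adjusted p = 3.13e-08). YOR186W differed by 2.65 ± 0.29 and YGL235W by 2.49 ± 0.73, or by 1.81 ± 0.24 and 1.27 ± 0.21 with levels raised to the floor. YGL138C, the hexose transporter homologue HXT14 and BSC4 were dim, with fitted differences of 3.03 ± 0.64, 2.82 ± 0.88 and 2.62 ± 0.74 that fell to 0.36 ± 0.28, 0.48 ± 0.27 and 0.19 ± 0.31 with levels raised to the floor, where none of the 3 was called.

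Other metals moved in part. In the zinc regulon 6 of 12 genes had the higher value for E9591 (beside 18.9% of all tested genes) and 3 the lower (beside 10.0%). ZPS1, a secreted protein gene strongly tied to zinc, had 12.29, 12.45 and 12.54 with E9591 against 13.28, 13.38 and 13.43 with DMSO, and 10.96, 11.24 and 11.43 with BIPR and 11.35, 11.16 and 11.35 with PHEN against 13.49, 13.49 and 13.73 with DMSO. ZPS1 fell under all 3 compounds, further with the chelators, and the difference was 1.38 ± 0.16 (adjusted p = 4.14e-07). ADH4, an alcohol dehydrogenase of the regulon, had effects of -0.52 with E9591 and -1.86 with the chelators, and the activator gene ZAP1 0.37 with E9591 and -0.66 with the chelators. IZH1 and IZH2, kin of IZH4, went the other way, with differences of -0.86 ± 0.12 and -1.08 ± 0.12. In the copper list 1 of 11 genes was higher, below the 18.9% of all genes, and 2 were lower (beside 10.0%). After quantile normalization 1 was higher and 5 lower (beside 851 and 850 of all 5429 genes). CTR1, the copper importer, had effects of -0.21 with E9591 and -1.22 with the chelators and a difference of 1.01 ± 0.19 (adjusted p = 0.000212), while CTR2 and the copper chaperone gene CCS1 had the lower value for E9591 (-0.31 ± 0.09 and -0.78 ± 0.09).

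Vitamin and amino acid genes gave mixed counts, to be read beside the 18.9% of all tested genes that were higher and the 10.0% that were lower. The lysine and retrograde lists lay near these shares. Of 5 biotin genes 4 had the higher value for E9591. BIO3 and BIO4, of biotin synthesis, had effects of 0.88 with E9591 and -0.34 with the chelators and of 0.10 with E9591 and -1.14 with the chelators, and BIO5, an importer of biotin precursors, 2.17 with E9591 and 0.88 with the chelators. Of 14 thiamine genes 5 were higher and 3 lower, and after quantile normalization 4 were higher and 5 lower. THI72, a thiamine transporter homologue, had effects of 1.51 with E9591 and 0.13 with the chelators, and THI7, the thiamine transporter, 0.36 with E9591 and 0.99 with the chelators. In the leucine and branched-chain list 5 of 13 were higher and 2 lower, and the higher ones included the iron-sulfur enzymes LEU1 and ILV3. Arginine synthesis had 4 of 6 higher, among them ARG7 (0.87 with E9591 and 0.15 with the chelators), and sulfate assimilation 4 of 8 higher and 2 lower, led by the sulfite reductase gene MET5 (-0.27 with E9591 and -1.14 with the chelators). Of 8 lysine genes 2 were higher, LYS1 and LYS4. BAP2, a permease for branched-chain amino acids, rose steeply under all 3 compounds. BAP2 had levels of 9.41, 9.50 and 9.75 with E9591 against 6.05, 6.03 and 5.58 with DMSO beside it, and of 9.45, 9.47 and 9.50 with BIPR and 9.78, 9.70 and 9.78 with PHEN against 5.88, 6.18 and 5.36 with DMSO beside them. The difference for BAP2 was -0.14 ± 0.20 (adjusted p = 0.651), with a 95% interval from -0.55 to 0.27. Across 13 permease genes 5 were higher and 1, AGP3, lower. GDH3, a glutamate dehydrogenase, rose less with E9591 (1.73 with E9591 and 3.08 with the chelators), with a difference of -1.35 ± 0.11 (adjusted p = 8.4e-10), and in its list of 4 genes GLT1 was the 1 that was higher. Of 11 retrograde response genes 3 were higher, ACO1, PYC1 and RTG3, and with arrays centred on the median PYC1 was not. Of 8 phosphate genes 3 were higher, and PHO5, the secreted acid phosphatase, had effects of -0.29 with E9591 and -1.96 with the chelators.

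General stress genes divided. The list median was 0.37 with E9591 and 0.70 with the chelators, and of 24 genes 7 had the higher value for E9591 (beside 18.9% of all tested genes) and 2 the lower (beside 10.0%), while the median difference was -0.33. The count and the median point to different sides, and most of the list did not pass the test. The list's median effect was 0.32 on replicate C of BIPR and 0.35 on replicate C of PHEN, against 0.77 to 0.98 on the other 4 chelator arrays. Without replicate C of the chelators' DMSO group the median difference was -0.07. HSP12, a membrane-stabilising stress protein, had 10.81, 10.75 and 10.85 with E9591 against 8.50, 8.16 and 8.62 with DMSO, and 7.87, 7.86 and 7.42 with BIPR and 7.70, 7.78 and 7.16 with PHEN against 7.76, 7.60 and 6.84 with DMSO. HSP12 rose with E9591 only, and the difference was 2.14 ± 0.29 (adjusted p = 4.77e-06). HSP26, a small heat-shock protein, was the reverse (0.19 with E9591 and 1.65 with the chelators), with a difference of -1.46 ± 0.37 (adjusted p = 0.00375). CTT1, the cytosolic catalase with heme, had effects of 0.00 with E9591 and -1.13 with the chelators, and CTA1, the peroxisomal catalase, 0.89 with E9591 and -1.07 with the chelators. Of 14 genes for oxidative stress 5 were higher (beside 18.9% of all genes) and 1, OYE3, lower (beside 10.0%). Without replicate C of the chelators' DMSO group 6 were higher and 3 lower, and the list's median difference was -0.01, against 0.16 with it. All 5 aryl-alcohol dehydrogenase genes tested had the higher value for E9591 (beside 18.9%), with a median difference of 0.59. After quantile normalization 3 of them did so.

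Of 30 ribosome assembly genes E9591 lowered 15 (beside 11.3% of all tested genes) and the chelators 26 (beside 22.1%). With arrays centred on the median these counts were 25 and 29. The difference was higher in 3, below the 18.9% of all genes, with a median of 0.14, and with arrays centred it was higher in 1 and lower in 1. Of 13 genes of the G1/S transition 5 had the higher value for E9591 (beside 18.9% of all genes), and the list median was -0.30 with E9591 and -0.52 with the chelators. CLN2, a G1 cyclin, had effects of -0.30 with E9591 and -0.91 with the chelators. Among 7 genes of the DNA damage response 5 were higher (beside 18.9% of all genes) and 2 lower (beside 10.0%). RNR2 and RNR4, which encode the small subunits of ribonucleotide reductase, the part of that enzyme that holds iron, had effects of -0.28 with E9591 and -0.76 with the chelators and of -0.27 with E9591 and -0.63 with the chelators, and the call of RNR4 was lost under 18 of the alternative settings. In contrast, RNR3, a large subunit made on damage, had effects of 0.15 with E9591 and 0.94 with the chelators and a difference of -0.79 ± 0.21 (adjusted p = 0.00654). Of 9 drug efflux genes 4 were higher (beside 18.9%) and 1, ICT1, lower (near the 10.0% of all genes). The DMSO group beside E9591 was the lower one in 6 of the 9 (beside 14.8% of all genes). PDR5, the main efflux pump, did not pass the test with E9591 (-0.04).

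**Figure D5:**
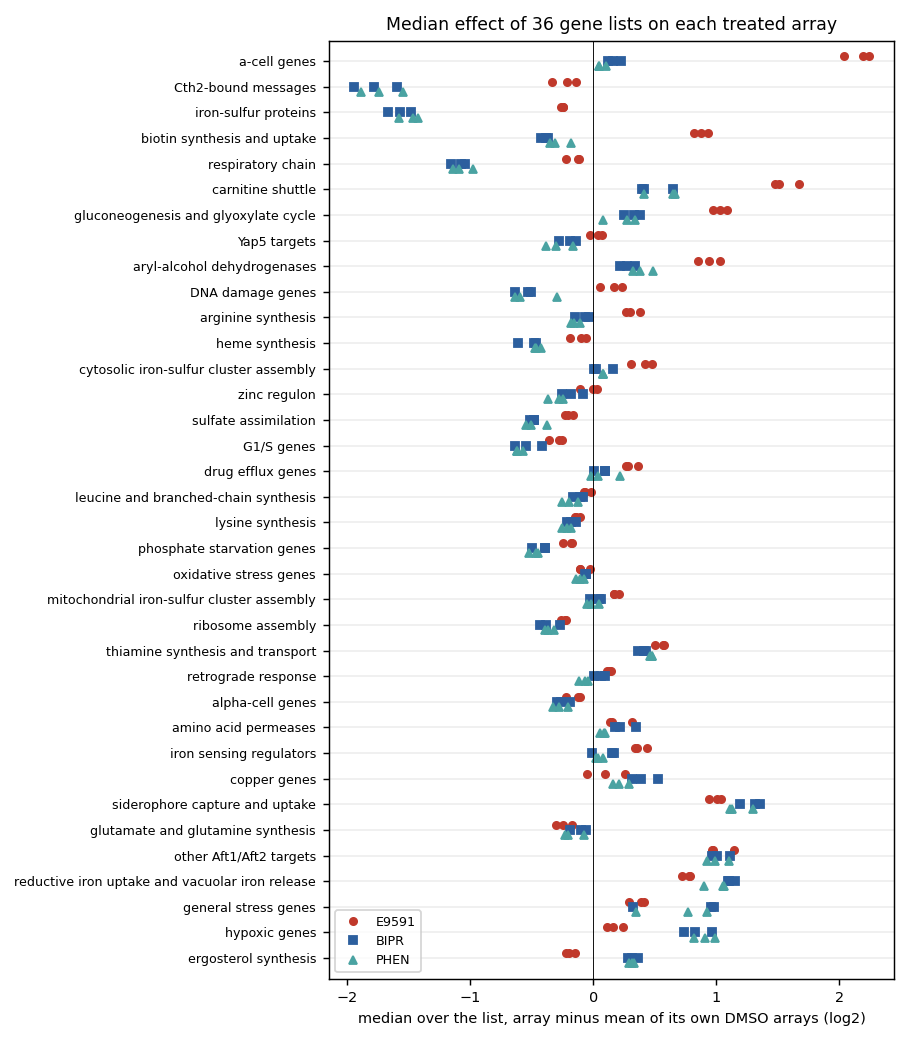
Median effect (horizontal, log2) over each of 36 gene lists on every treated array, taken minus the mean of its own DMSO arrays, for E9591 (red circles), BIPR (blue squares) and PHEN (green triangles), with lists ordered by their median difference of effects. The a-cell list is at the top with E9591 arrays alone far right of 0, the iron-sulfur and Cth2-bound lists have BIPR and PHEN arrays far left of 0, and the hypoxic and ergosterol lists at the bottom have E9591 arrays left of the others.

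Each chelator was also set alone against E9591. The difference was called in 1397 genes with BIPR as the only chelator (932 higher and 465 lower) and in 1451 with PHEN (949 higher and 502 lower), where both share 1 DMSO group. For CYC1 the difference was 3.43 with BIPR and 3.28 with PHEN. For DAN1 it was -5.01 with BIPR and -5.53 with PHEN, and for FRE2 it was -1.83 with BIPR and -1.79 with PHEN. The DMSO groups enter every difference with their own values. Among the 190 genes with the higher value for E9591 at least 2-fold, the DMSO groups differed by at least 2-fold in 6, and among the 59 with the lower value in 3. Among the 190 genes 22 had a group below the floor on all its arrays, as had 5 of the 59.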

How the data were processed

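RNA from 3 biological replicate cultures per group was hybridised, 1 array each, to an Affymetrix array with probe sets for S. cerevisiae and for another yeast. The deposited values are intensity on a linear scale. Their 2% trimmed mean lay between 1000.4 and 1000.8 on all 30 arrays, as scaling to one target would give, though no source used here states such a step. For software, background correction and summarisation nothing is given in the sources used here. Of 10928 probe sets, 5498 carry 1 gene of S. cerevisiae by the platform annotation, 1746 belong to the other species, 1 carries several genes and 3683 are not listed. The brightest probe set stood for each of 47 genes with more than 1. The other-species probe sets gave each array's floor (95th percentile). Genes were tested where they exceeded the floor on at least 3 of 30 arrays, which left out 20 of 5449 genes, and 113 tested genes have probe sets of a type shared with similar sequences.

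log2(intensity + 1) was fitted with limma 3.58.1 in R 4.3.3 as group means over all 30 arrays, with no sample dropped (20 residual and 3.16 prior degrees of freedom), and p-values are two-sided, Benjamini-Hochberg adjusted over 5429 genes, and called under 0.05. The fit was tested on simulated data. The p-values measure spread between cultures of 1 experiment per compound and leave out spread between experiments. Where a group lay below the floor on all its arrays, a bound or the value with levels raised to the floor is given. The genes named are the 15 largest differences each way among called genes whose E9591 effects lay outside the range of the chelator effects, and members of 36 lists, of which 13 listed names were not analysed here. The comparison and the lists were chosen with earlier results of these data known. Alternatives were other scalings, filters, pseudocounts and probe set rules, array weights, a replicate block, each chelator alone, and leaving out each array. Slide, scan date and promoter sequences were not used here.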

Additional observations from a re-analysis of the deposited data

How the results depend on the processing

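The difference of effects was called in 1567 genes and the DMSO difference in 1263. With array weights these counts were 2362 and 2128, and replicate C of the chelators' DMSO group had the lowest weight (0.114). The estimator of the weights was chosen after the usual one failed to converge. Leaving out 1 array at a time gave 1345 to 1844 genes for the difference of effects, 1948 to 2659 for E9591, 2509 to 2972 for the chelators and 880 to 1583 for the DMSO groups. The main fit did not treat the replicate letters as pairs. Deviations from the group means had correlations of -0.034 to 0.227 between arrays of the same letter within an experiment. The highest was for replicate C of PHEN and of the chelators' DMSO group, so some shared variation by letter is possible there. With a replicate block the counts were 1520, 2284, 2892 and 1195. Under that block 7 of 24 general stress genes had the higher value for E9591 and 9 the lower, against 2 lower without it. The other settings gave 1397 to 1732 genes for the difference of effects. Of the 30 genes named by size, 27 were called under every alternative run, and YGL138C, HXT14 and BSC4 were not. HXT14 was also lost on the 15 arrays alone, without replicate A of the E9591 experiment's DMSO group (1.99) and with BIPR alone, and BSC4 on the 15 arrays alone and with BIPR alone. Of 252 called genes of the lists and names, 212 were called under every alternative and 0 changed direction while called.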

Other observations

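The genes here were picked after their values had been seen. SNZ1 and SNO1, neighbouring genes of vitamin B6 synthesis, stood high on the E9591 arrays alone. SNZ1 had levels of 13.50, 13.44 and 13.41 with E9591 against 10.97 to 11.05 with DMSO, and of 11.37, 11.09 and 11.22 with BIPR and 11.33, 11.18 and 11.37 with PHEN against 11.15, 10.95 and 11.01 with DMSO. Its difference of effects was 2.22 ± 0.11 (adjusted p = 3.42e-13), and that of SNO1 was 1.86 ± 0.14 (adjusted p = 2.29e-10). SPO21, a gene of the spore-forming program, also rose with E9591 (1.77 with E9591 and -0.04 with the chelators), with a difference of 1.80 ± 0.13 (adjusted p = 2.46e-10). VHR1, the regulator of biotin genes, had effects of 1.18 with E9591 and -0.21 with the chelators and CIT3, a mitochondrial citrate and methylcitrate synthase, 1.94 with E9591 and 0.21 with the chelators. HAP4, the activator subunit for respiratory genes, fell with the chelators only (0.26 with E9591 and -0.81 with the chelators), and its difference was 1.07 ± 0.19 (adjusted p = 0.00014). NDE1, the paralogue of NDE2, had effects of 0.63 with E9591 and -0.86 with the chelators, and YRO2, a plasma membrane protein gene, 0.01 with E9591 and -2.17 with the chelators.

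On the chelators' side, MGA2, a membrane-bound activator of OLE1, had effects of -0.01 with E9591 and 1.30 with the chelators and a difference of -1.30 ± 0.14 (adjusted p = 1.13e-07). ATF2, an acetyltransferase that acts on sterols, differed by -1.73 ± 0.13 (adjusted p = 4.27e-10), and ERG29, a protein gene of sterol synthesis, by -1.03 ± 0.18 (adjusted p = 0.000103). INO1, the inositol phosphate synthase, went the other way, with effects of -0.30 with E9591 and -1.30 with the chelators. The PAU family of cell wall protein genes had 13 tested members, 11 with probe sets of a type shared between similar sequences, so that their values cannot be assigned to 1 gene. Their effects lay between -0.31 and 2.77 with E9591 (median 0.63) and between -0.76 and 2.24 with the chelators (median 1.23), and the difference lay below 0 in 9 of them. PAU18 had the lowest difference (-1.32 ± 0.12) and PAU5 the highest (0.53 ± 0.14).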
